A study of Canis lupus familiaris with 7 samples.

Results

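The glycolytic enzymes examined here in the left ventricle of dogs were 10 genes: HK1, HK2, PFKM, ALDOA, GAPDH, PGK1, ENO3, PKM, LDHA and LDHB. They were followed through every probe set whose only gene symbol in the platform annotation was one of these names, the array maker's control probe sets apart. A probe set is a short group of probes read as 1 value, and 17 of the 42924 probe sets outside the controls met this rule. They read 9 of the 10 genes, among 15115 genes that have a probe set of their own. In the platform annotation their gene numbers are 479234 (HK1), 475781 (HK2), 403849 (PFKM), 479787 (ALDOA), 403755 (GAPDH), 480964 (PGK1), 479469 (ENO3), 403874 (PKM) and 476882 (LDHA). LDHB appears only on 2 probe sets that the annotation also gives to other genes, so no value is given for it, and 4 further probe sets shared by LDHA and other genes were left out for the same reason. Of the 17, 12 were bright enough to be tested, and they cover 8 genes. Whether the probes of the 17 match other transcripts as well was not checked.

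The samples were total RNA of the left ventricle of male dogs, hybridised to 1-colour Affymetrix canine arrays. The low-salt group had 4 samples (numbered 1 to 4), from adult mongrel dogs kept for 2 weeks on a diet with 0.5% sodium chloride. The control group had 3 samples (numbered 1, 3 and 4), for which the sample information names no diet, feeding time or age. The series title links the diet to heart disease, and the comparison asked which cardiac transcripts differ between the groups. The design text mentions 10 dogs on the diet. The sources used here do not tell how those relate to the 4 arrays, nor whether each array stands for 1 animal, so the p-values rest on a spread between samples that may be technical.

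Glycolysis splits glucose into pyruvate in the cytosol, with a small yield of ATP, and lactate dehydrogenase interconverts pyruvate and lactate. The adult heart draws most of its ATP from the oxidation of fatty acids, and it both takes up lactate as a fuel and releases it when oxygen is short. Several steps are run by muscle forms of the enzyme (PFKM, ALDOA, ENO3), and the forms of 1 step can be replaced by others during development or under load.

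Measured values are given first as the deposited intensity, which is linear, and then as normalized values on a log2 scale, log2(intensity + 16) after quantile normalization. A change is the low-salt mean minus the control mean on that log2 scale, with its standard error (SE) from limma, and it understates the change of dim probe sets. The 7 arrays had been scaled to one trimmed mean by the authors, but their median deposited intensities ran from 31.5 to 51.3 in controls and from 19.3 to 44.2 in low salt. The 10 cardiomyocyte markers, among them MYH7, MYL2, TNNT2 and RYR2, were all tested, and their summed normalized intensity overlapped between the groups, at 94078 to 98932 in controls and 94147 to 100930 in low salt. Among them TNNI3 was higher by 0.25 (log2, limma adjusted p = 0.422), with overlap. The summed levels of 6 further cell types (smooth muscle, endothelium, fibroblasts, macrophages, red blood cells, adipocytes) overlapped as well, although single markers did not. C1QB of macrophages was higher by 1.01 (log2, limma adjusted p = 0.165). CNN1 of smooth muscle, dim in controls at 8.18 to 13.3, was higher by 1.19 (limma adjusted p = 0.243). PLIN1 of adipocytes, too dim to be tested, was higher by 0.72. Precision is limited by having 7 arrays.

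None of the 12 tested enzyme probe sets differed between low salt and control at the adjusted threshold, which does not show equal levels. The 95% interval of the change stayed within 1.5-fold in both directions for 6 of the 12, and within 2-fold for 10. HK2 and LDHB had no tested probe set of their own, so the counts below leave them out. By limma 0 of the 12 tested probe sets passed an adjusted p of 0.05 (Benjamini-Hochberg over all 28616 tested probe sets), where 0.346% of all tested probe sets passed. At an unadjusted p under 0.05 there was 1, a hexokinase 1 probe set that stood lower in low salt, against 11% of all probe sets at that level (5.78% lower and 5.27% higher). On the same values, the test named in the methods put 1 of 12, the same HK1 probe set, at an unadjusted p under 0.05. The share of all probe sets at that level by that test is not given, so this count has no background to stand against. After Benjamini-Hochberg adjustment it passed 0 of the 12, and 4 of all 28616 tested probe sets. Of the 12, 7 had a change above 0 and 5 below, where 46.2% of all tested probe sets were below, and their median change was 0.09, beside 0.04 for all tested probe sets. Groups without overlap occurred in 1 of the 12, all low salt lower (10.8% of all probe sets in either direction, 5.68% lower), and in 0 with all low salt higher (5.13%). With the offset of 16 none reached a 2-fold change, and the design text's threshold, an unadjusted p of at most 0.05 with at least a 2-fold change, was met by 0 by limma (4.4% of all probe sets) and by 0 with the methods' t-test (3.04%). With an offset of 1, and with the values as deposited, 1 met it by limma, the HK1 probe set. The share of all probe sets that met it under those 2 settings is not given.

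**Figure D1:**
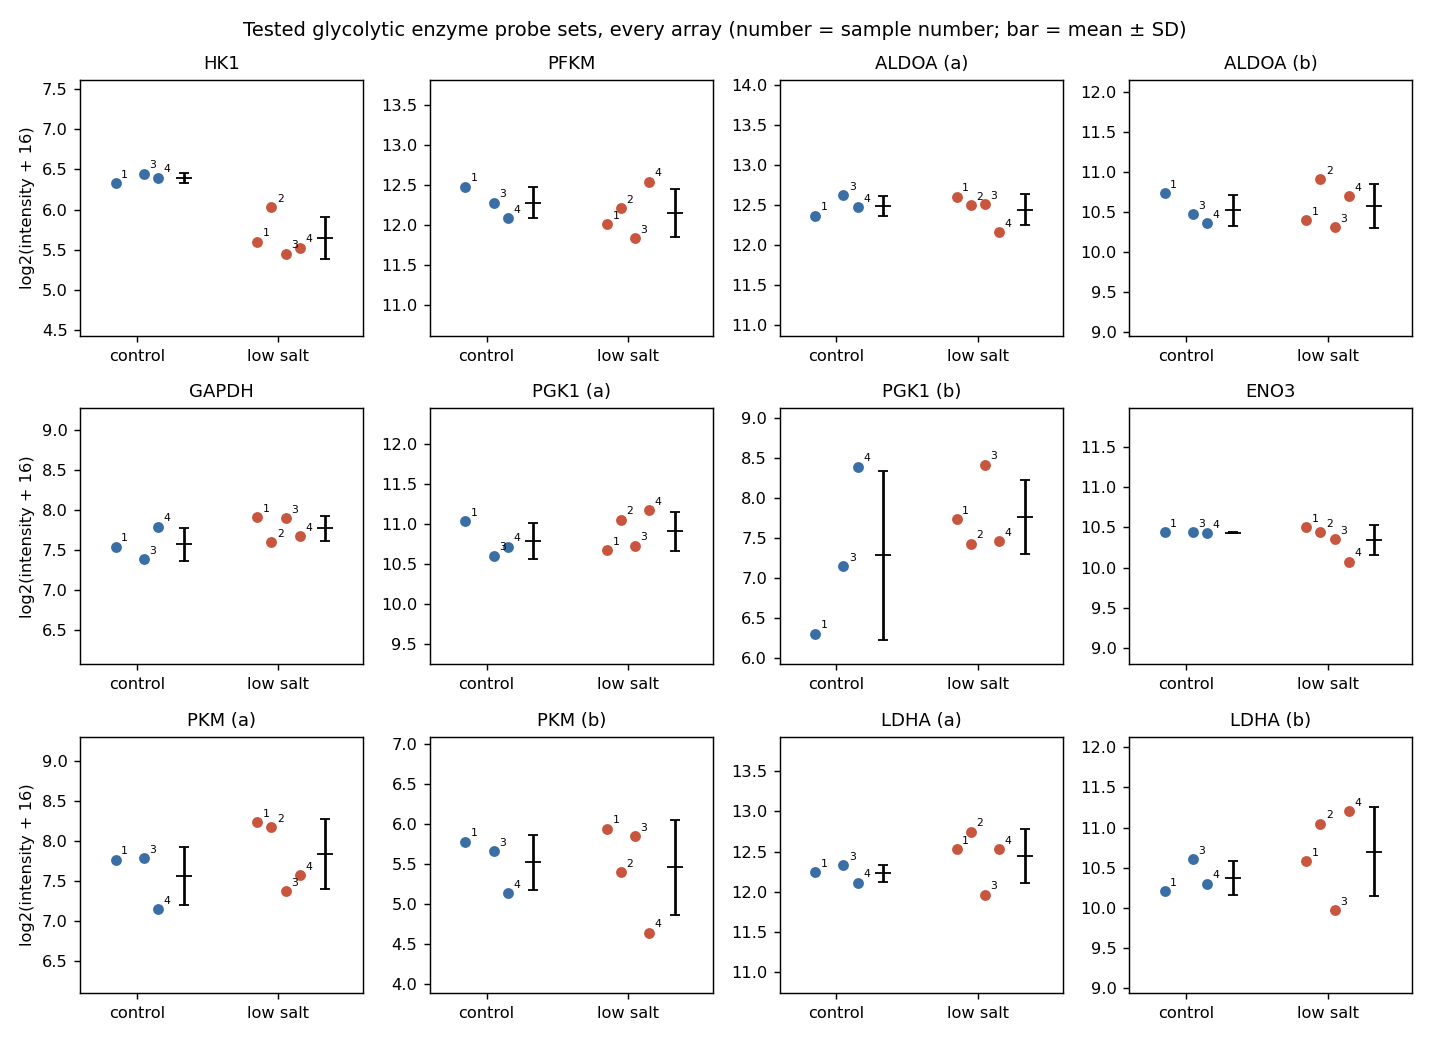
Normalized values, log2(intensity + 16), of the 12 tested probe sets in the 3 control samples (blue) and the 4 low-salt samples (red), each point 1 array with its sample number and the black bar the mean ± SD; every panel has the same log2 span, and (a) is the brighter and (b) the dimmer probe set of a gene. HK1 is the panel in which all 4 low-salt values lie under all 3 control values.

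The first step, the trapping of glucose as glucose 6-phosphate, is run by hexokinases. HK1 is the widely expressed form and HK2 the insulin-responsive form of muscle, and both can bind to the outer mitochondrial membrane. The HK1 probe set that was tested had deposited intensities of 79.2, 70.4 and 95.8 in control 1, 3 and 4. In low-salt 1 to 4 it had 22.6, 35.9, 38.9 and 18.3. Every low-salt array was below every control array, with no overlap. On the normalized log2 scale the means were 6.39 ± 0.06 (SD, n = 3) and 5.65 ± 0.26 (SD, n = 4), a change of -0.74 ± 0.30 (SE), which is 1.67-fold lower in low salt. The 95% interval ran from -1.39 to -0.10, the unadjusted limma p was 0.0275 and the adjusted p 0.392, so it did not pass. The change stayed below 0 in all 16 alternative settings and ranged from -1.14 to -0.42, with adjusted p from 0.203 to 0.803. The unadjusted p rose to 0.0649 without control 3, to 0.0546 without low-salt 1 and to 0.059 without low-salt 4.

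The HK1 difference rests on that single probe set, whose matches to other transcripts were not checked. The 2 other HK1 probe sets were too dim to be tested. One lay between 2.6 and 13.1 on 6 arrays and at 49.5 on low-salt 2, so its mean was higher in low salt, by 0.60, through 1 array. The other had at most 8.39 on any array, with a mean difference of -0.16. In whole-tissue RNA, fewer cells of a type and less RNA per cell cannot be told apart.

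The summed level of fast skeletal muscle markers was lower in low salt, as was the HK1 probe set. Among the single markers, only TNNI2 and PVALB had all low-salt values below all controls. Of the 10 listed, all were on the array and 7 were tested. The summed normalized intensity of all 10, the untested ones included, was 629 to 746 in controls and 330 to 534 in low salt, without overlap. Among them TNNI2, a fast troponin subunit, was 5.19-fold lower (limma adjusted p = 0.0411) and PVALB, the calcium buffer parvalbumin, was 2.82-fold lower (limma adjusted p = 0.0439), with median deposited intensities of 184 in controls and 25.3 in low salt for TNNI2 and 155 and 27.9 for PVALB. Of the other tested markers ATP2A1, the fast calcium pump, differed by -0.10, MYH4 by -0.82 and MYBPC2 by -0.35, while MYLPF differed by 0.28 and MYH2 by 0.10. MYH1, TNNT3 and ACTN3 were too dim to be tested, and ACTN3 stood higher in all low-salt arrays (0.91). The part of these markers in the HK1 difference was not tested.

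Both HK2 probe sets were too dim to be tested. The brighter one had deposited intensities of 13.0, 2.34 and 6.27 in controls and 1.48, 6.89, 33.6 and 10.7 in low-salt 1 to 4, so its highest value came from low-salt 3 and the groups overlapped. Its normalized means were 4.42 ± 0.30 (SD, n = 3) and 4.84 ± 0.48 (SD, n = 4), close to the floor that the offset sets. The dimmer one had at most 13.9 on any array, with a mean difference of 0.14. No change of HK2 could be read at this signal.

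The log2 ratio of HK1 to HK2 within an array was 1.57, 2.23 and 2.11 in controls and 1.38, 1.30, 0.14 and 0.43 in low-salt 1 to 4. Controls lay above low salt throughout, with means of 1.97 ± 0.35 (SD, n = 3) and 0.81 ± 0.62 (SD, n = 4), a difference of -1.16. The exact two-sided permutation p was 0.0571, the smallest that 35 splits of 7 arrays allow, so this design cannot reach 0.05. The HK2 side of the ratio is the dim probe set above, and the difference ran from -2.04 with an offset of 1 to -0.57 with an offset of 64. With an offset of 1 the groups were no longer fully apart, and the exact two-sided permutation p was 0.114. Since the HK2 probe set lies near the floor, the ratio cannot show whether HK1 changed against HK2. The matching ratio of LDHA to LDHB was not computed, because LDHB has no probe set of its own here.

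PFKM is the muscle subunit of phosphofructokinase, the enzyme of the committed step and the main point of control of the pathway. Its only probe set read 5829, 5321 and 3748 in control 1, 3 and 4 and 4494, 5072, 3258 and 6055 in low-salt 1 to 4. The highest and the lowest of the 7 deposited values both came from low salt. The normalized means were 12.28 ± 0.20 (SD, n = 3) and 12.15 ± 0.30 (SD, n = 4), a change of -0.13 ± 0.16 (SE, adjusted p = 0.809), smaller than the spread within either group. The 95% interval, 0.720-fold to 1.16-fold, leaves out a 1.5-fold change in either direction.

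ALDOA, the muscle aldolase that cuts fructose 1,6-bisphosphate into 2 triose phosphates, had 2 tested probe sets. The brighter read 5298, 6836 and 4810 in controls and 6799, 6161, 5066 and 4806 in low-salt 1 to 4. The dimmer read 1584, 1425 and 1143 in controls and 1438, 2062, 1168 and 1829 in low salt. The groups overlapped in both. The changes were -0.04 ± 0.13 and 0.06 ± 0.18 (SE), with adjusted p of 0.93 and 0.939. The brighter probe set had the smallest SE of the 12, and its 95% interval of 0.803-fold to 1.17-fold was the narrowest of the 12. Neither sign held across the settings: the brighter probe set turned to 0.02 with the values as deposited and to 0.45 with array medians set equal, and the dimmer to -0.05 without low-salt 2.

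GAPDH oxidises glyceraldehyde 3-phosphate with the formation of NADH, and its transcript is often used as a reference between samples. The only probe set with GAPDH as its single gene outside the controls read 181.8, 150.2 and 210.3 in control 1, 3 and 4. In low-salt 1 to 4 it read 218.9, 171.1, 225.3 and 178.9, with overlap between the groups. The normalized means were 7.58 ± 0.21 (SD, n = 3) and 7.77 ± 0.16 (SD, n = 4), a change of 0.20 ± 0.24 (SE, limma adjusted p = 0.804), with a 95% interval of 0.805-fold to 1.63-fold. Its within-group SD was 0.18, and 7.57% of all tested probe sets had a smaller one. On every array it was dimmer than each of the array maker's GAPDH control probe sets. Its change is that of 1 probe set and need not stand for the whole transcript.

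The array maker's GAPDH control probe sets, which stayed outside the tests, come in 2 series that each read the 3' end, the middle and the 5' end of the transcript. At the 3' end the Cf_Gapdh series read 7035 to 12964 in controls and 7971 to 13243 in low salt, and the groups overlapped. On the log2 scale of the deposited values the low-salt mean differed by 0.07 at the 3' end, 0.46 in the middle and 0.26 at the 5' end in this series. In the Cfa-gapdh series the same differences were -0.18, 0.29 and 0.51. The groups overlapped in all 6. The differences were above 0 in the middle and at the 5' end in both series, and at the 3' end their sign differed between the series.

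The 3' to 5' ratio, a measure of RNA integrity and labelling, separated the groups for GAPDH but not for actin. In the Cf_Gapdh series it was 2.43, 2.78 and 2.53 in control 1, 3 and 4 and 2.36, 2.03, 2.28 and 2.41 in low-salt 1 to 4. In the Cfa-gapdh series it was 40.9, 24.4 and 22.7 in controls and 17.2, 16.6, 14.5 and 22.6 in low salt. In both series all controls were above all low-salt arrays, with the nearest arrays close together, and both exact two-sided permutation p-values were 0.0571, the smallest the design allows. The actin ratio ran the other way with a wide spread, at 298 to 387 in controls (mean 332) and 172 to 1621 in low salt (mean 720), with an exact two-sided permutation p of 0.457. The part of RNA integrity in the values of the enzymes was not tested.

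**Figure D2:**
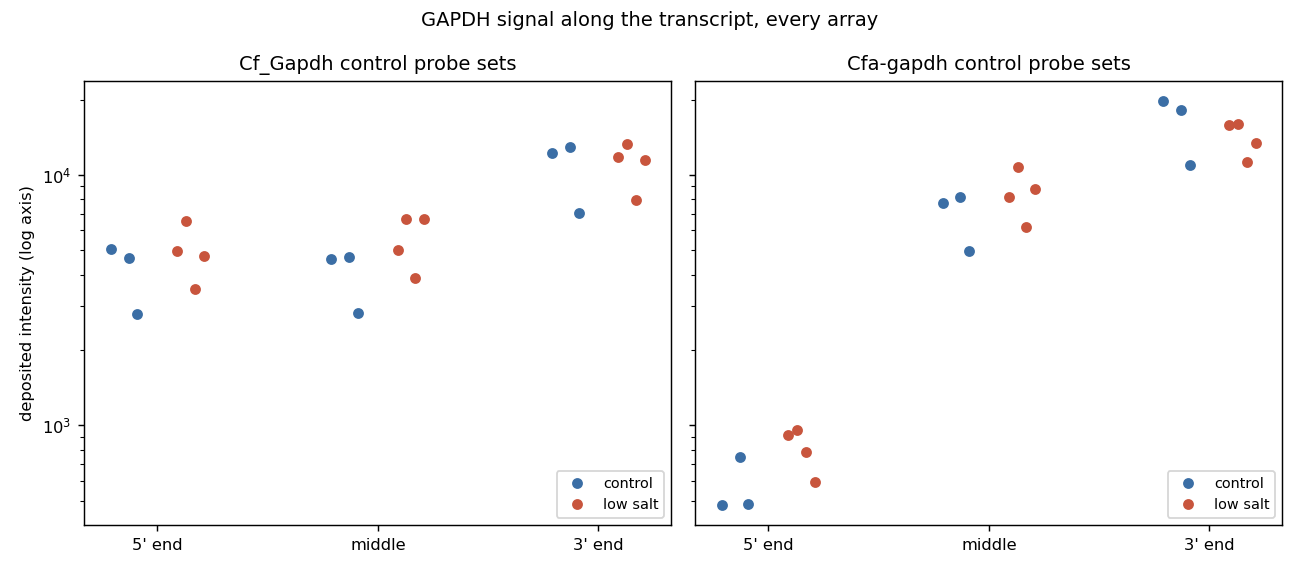
Deposited intensity (log axis) of the GAPDH control probe sets at the 5' end, the middle and the 3' end, for the 3 control arrays (blue) and the 4 low-salt arrays (red), with 1 panel per series. Points of the groups overlap at every position, and the low-salt arrays sit higher relative to the controls at the 5' end than at the 3' end.

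PGK1, which makes the first ATP of the pathway, had 2 tested probe sets that behaved differently. The brighter read 1933, 1553 and 1459 in controls and 1736, 2257, 1560 and 2502 in low-salt 1 to 4, with overlap. Its change was 0.12 ± 0.17 (SE, adjusted p = 0.839), and its 95% interval of 0.842-fold to 1.40-fold leaves out a 1.5-fold change. The dimmer read 77.4, 124 and 309.5 in controls and 189.8, 146.7, 318.3 and 145.9 in low salt, so its highest values came from control 4 and low-salt 3. Its suffix x marks a probe set with probes that can match other transcripts.

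The dimmer PGK1 probe set had the largest change above 0 among the 12, 0.48 ± 0.42 (SE, adjusted p = 0.709), and also the largest SE. Its within-group SD was 0.75, and 91% of all tested probe sets had a smaller one. The change went to 1.08 without control 4 at an unadjusted limma p of 0.0101 (adjusted p = 0.225), which meets the design text's threshold, and to -0.01 without control 1. With array medians set equal it was 0.78 at an unadjusted p of 0.0441 (adjusted p = 0.356). The remaining PGK1 probe set was too dim to be tested, with at most 8.62 on any array.

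ENO3 is the muscle enolase, which replaces the widely expressed ENO1 as the main form when muscle matures. It was the steadiest of the enzymes within the controls. Its probe set read 1294, 1387 and 1198 in controls and 1543, 1484, 1201 and 1172 in low-salt 1 to 4. After normalization the 3 controls lay at 10.44, 10.44 and 10.43 and low-salt 4 was the lowest array, at 10.07. The change was -0.09 ± 0.16 (SE, limma adjusted p = 0.876), with a 95% interval of 0.741-fold to 1.19-fold, and it turned to 0.05 with the values as deposited and to 0.49 with array medians set equal.

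PKM encodes pyruvate kinase, which makes pyruvate and the second ATP of the pathway, as 2 splice forms that the annotation used here does not separate. The brighter probe set read 212.7, 205.1 and 145.8 in controls and 285.6, 275.0, 160.7 and 162.2 in low-salt 1 to 4. Low-salt 1 and 2 were above every control, and low-salt 3 and 4 between control 4 and control 3. The change was 0.27 ± 0.29 (SE, adjusted p = 0.772). The dimmer probe set read 48.9, 34.4 and 31.9 in controls and 32.5, 17.6, 57.4 and 5.13 in low salt, a change of -0.07 ± 0.39 (SE, adjusted p = 0.972). The 2 probe sets ordered the low-salt arrays differently, and the 95% interval of each was wide, at 0.783-fold to 1.86-fold and 0.534-fold to 1.71-fold.

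LDHA encodes the M subunit of lactate dehydrogenase, the form of skeletal muscle, while the H subunit encoded by LDHB is the main one of the heart. The brighter LDHA probe set read 4848, 5522 and 3806 in control 1, 3 and 4 and 6456, 7494, 3592 and 6029 in low-salt 1 to 4. The dimmer read 1105, 1561 and 1099 in controls and 1634, 2250, 922 and 2575 in low salt. The dimmer has the suffix x too, so its probes can match other transcripts. In both, low-salt 1, 2 and 4 were above all 3 controls as deposited, and low-salt 3 was below all 3. After normalization the dimmer probe set kept 2 low-salt arrays above every control, since low-salt 1 stood at 10.58 and control 3 at 10.60.

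The LDHA changes were 0.21 ± 0.16 (SE, adjusted p = 0.654) and 0.33 ± 0.25 (SE, adjusted p = 0.657), with 95% intervals of 0.913-fold to 1.47-fold and 0.866-fold to 1.82-fold. Single arrays moved them in both directions. Without low-salt 3 the changes were 0.38 at an unadjusted limma p of 0.00906 (adjusted p = 0.23) and 0.57 at one of 0.0124 (adjusted p = 0.244). Leaving out other arrays brought the changes down to 0.11 and 0.16 at the lowest. Both stayed above 0 in all 16 alternative settings, from 0.11 to 0.72 for the brighter and from 0.16 to 0.90 for the dimmer probe set, and neither passed an adjusted p of 0.05 in any of them.

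**Figure D3:**
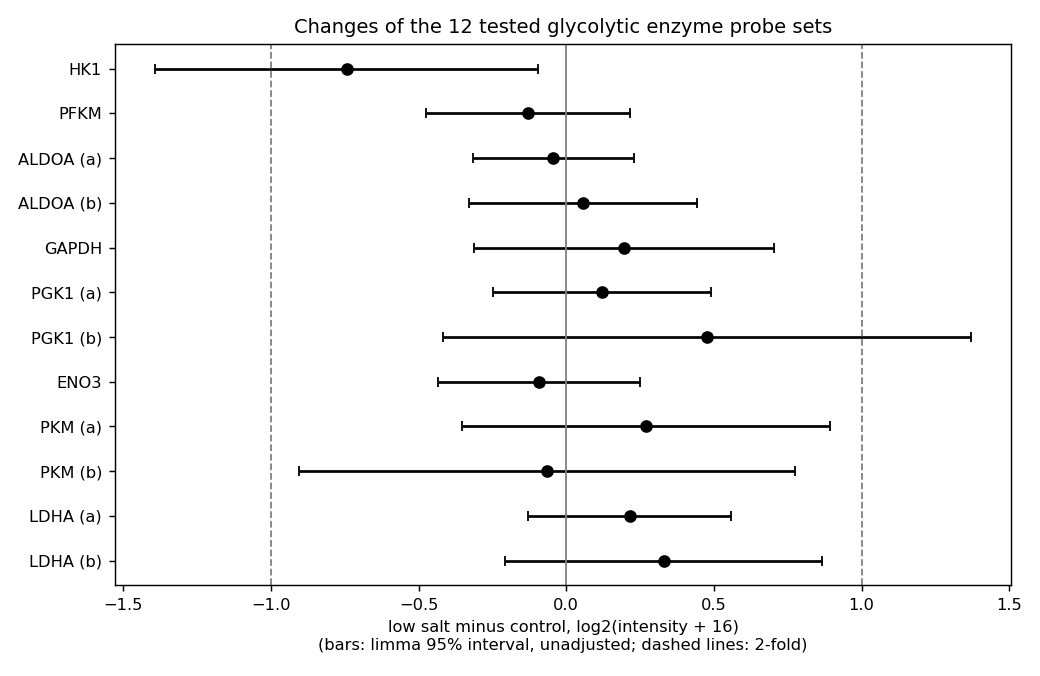
Change of the 12 tested probe sets, low salt minus control on the log2(intensity + 16) scale, with the unadjusted 95% interval from limma as bars and dashed lines at a 2-fold change; (a) is the brighter and (b) the dimmer probe set of a gene. HK1 is the only interval of the 12 that leaves out 0, and those of HK1 and PGK1 (b) reach past 2-fold.

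The intervals set the size of change that these arrays leave possible. For 10 of the 12 probe sets the 95% interval stayed within a 2-fold change in both directions, the exceptions being HK1 and the dimmer PGK1 probe set. For 6 it stayed within 1.5-fold: PFKM, both of ALDOA, the brighter of PGK1, ENO3 and the brighter of LDHA. Standard errors ran from 0.13 to 0.42, beside a median of 0.35 over all tested probe sets. The within-group SD of 9 of the 12 was below the median of all tested probe sets, 0.42.

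The arrays differed in the enzymes as a set, and the difference did not follow the groups. The median deviation of the 12 probe sets from their own means over the 7 arrays was lowest on low-salt 3 (-0.19) and control 4 (-0.13) and highest on low-salt 1 (0.13). Low-salt 3 held the lowest value of the 7 arrays in 5 of the 12 probe sets, and low-salt 1 the highest in 4. Low-salt 3 and control 4 were also the arrays with the highest median deposited intensity, at 44.2 and 51.3. Over all tested probe sets the median deviation was 0.01 on low-salt 3 and 0.02 on control 4. The part of array brightness in the enzyme values was not tested.

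**Figure D4:**
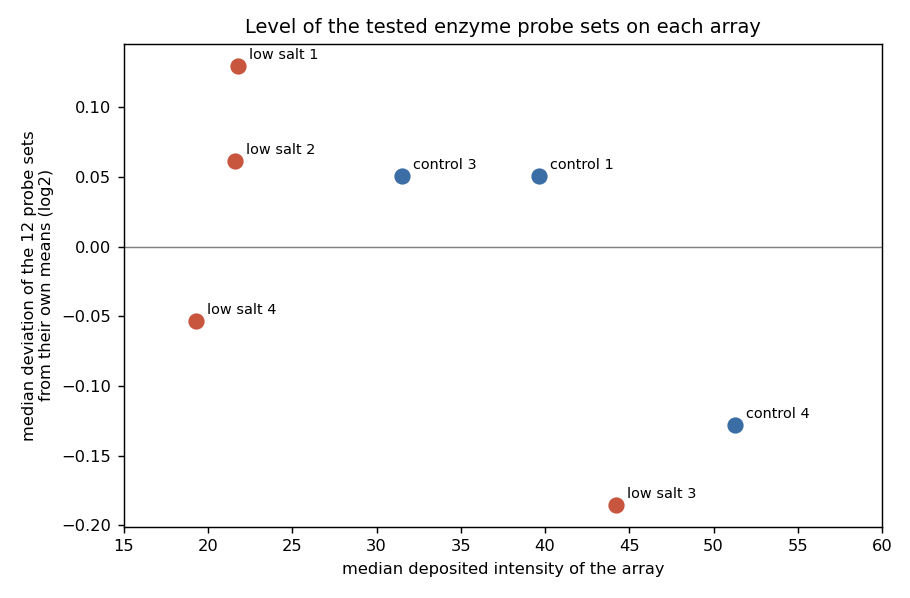
Median deviation of the 12 tested probe sets from their own means (log2, vertical) against the median deposited intensity of each array (horizontal), for 3 control (blue) and 4 low-salt arrays (red). Control 4 and low-salt 3, the arrays of highest median intensity, have the lowest enzyme values, at -0.13 and -0.19.

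How many of the enzymes lay above 0 depended on the scaling of the arrays. It was 7 of the 12 with quantile normalization, 9 with no scaling beyond the authors' own, and 10 with equal array medians. The median of all tested probe sets was 0.04, -0.17 and 0.26 under the 3 scalings, and the median of the 12 was 0.09, 0.16 and 0.59. Relative to all probe sets the enzymes therefore stood 0.05 higher with quantile normalization and 0.32 higher with the values as deposited, where 10 of the 12 lay above the median of all. Probe sets of like brightness were not compared, so these gaps need not be particular to the enzymes. Setting the medians equal adds 1 constant to every change, so its values relative to all probe sets repeat those of the deposited values. HK1 and the dimmer of PKM were below 0 under all 3 scalings, and both of LDHA, both of PGK1, GAPDH, the brighter of PKM and the dimmer of ALDOA were above 0 under all 3. ENO3 and the brighter of ALDOA differed in sign between quantile normalization and the deposited values, both by small amounts. Among the 3 scalings PFKM was above 0 only with equal medians, through that common shift.

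**Figure D5:**
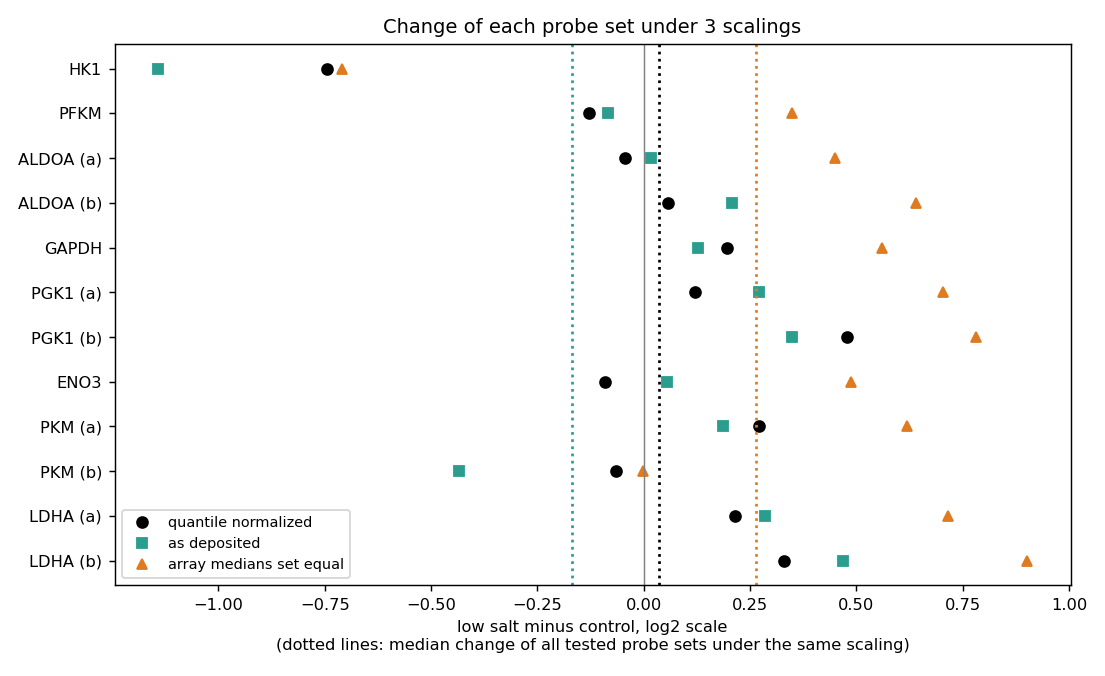
Change of each tested probe set (low salt minus control, log2) under quantile normalization (black circles), as deposited (green squares) and with equal array medians (orange triangles); dotted lines mark the median of all tested probe sets under the same scaling, at 0.04, -0.17 and 0.26. HK1 lies below 0 and LDHA above 0 under all 3, and ENO3 and ALDOA (a) lie on either side of 0 with quantile normalization and as deposited.

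The other genes of glucose use were read from a list of 62 genes by the brightest probe set of each, of which 58 were named on the array and 49 tested. By limma 0 passed an adjusted p of 0.05. At an unadjusted p under 0.05 there were 3 higher (5.57% of all genes read in this way) and 2 lower (4.89%). The median change of the list was 0.05, with 28 above 0 and 21 below.

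Read by the brightest probe set, uptake, the early steps, the steps from triose to pyruvate, the control of phosphofructokinase and glycogen held no gene at an unadjusted p under 0.05. TPI1, which interconverts the triose phosphates, differed by 0.07 ± 0.15 (SE), and PGAM2, the muscle phosphoglycerate mutase, by -0.08 ± 0.14. Glucose transport (5 of 5 genes tested) had a median of 0.11, and SLC2A4, the insulin-responsive transporter GLUT4, differed by -0.01 ± 0.35. The SLC2A4 probe set was dim, with deposited intensities of 9.01 to 40.9, so its small change is a weak reading of the gene. The 4 tested genes of the early steps had a median of 0.03, the 8 between triose and pyruvate 0.05, the 5 that control phosphofructokinase 0.19 and the 12 of glycogen 0.04. PFKFB2, the heart form of the enzyme that makes the activator of phosphofructokinase, was too dim to be tested. SLC16A1, a lactate and pyruvate carrier, differed by -0.20 ± 0.34.

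Read instead by the probe set of smallest p, which favours low p-values, the list had 5 higher and 4 lower genes at that level. Still 0 passed an adjusted p of 0.05. The share of all genes read by their smallest p was not computed, so these counts have no background to stand against. In these steps the smallest-p reading added 4 genes whose brighter probe sets differed less. ENO1, the widely expressed enolase, had a probe set at -1.68 (limma adjusted p = 0.0769) beside -0.04 for its brightest. PFKL, the liver subunit of phosphofructokinase, had one at 1.55 (limma adjusted p = 0.168) beside 0.24. PYGB, the brain glycogen phosphorylase, had one at -1.08 (limma adjusted p = 0.322) beside -0.31. PGM1, which links glycogen to glucose 6-phosphate, had one at 0.35 (limma adjusted p = 0.428) beside 0.06.

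The genes of the list at an unadjusted p under 0.05 were 4 regulators and LDHD. MLXIP, a glucose-sensing transcription factor also called MondoA, read 132.9, 92.2 and 49.0 in controls and 3.01, 7.75, 4.91 and 1.81 in low salt. All low-salt values were below all controls, a change of -2.03 ± 0.41 (SE, limma adjusted p = 0.0635), while its other tested probe set differed by 0.23 and an untested one by 0.81. The MLXIP call depends on the setting: it passed with the values as deposited (adjusted p = 0.0218), with array medians set equal (0.0366), with array weights (0.0238) and without control 4 (0.00578). EPAS1, which encodes the hypoxia-inducible factor HIF-2α, differed by -0.58 ± 0.26 (SE, adjusted p = 0.437), with an untested probe set at -0.79. Its unadjusted limma p rose to 0.0577 with the values as deposited, 0.073 with array weights and 0.779 with equal array medians, where the difference was -0.10. HIF1A, the related factor HIF-1α, was named after its value was seen and differed by -0.02.

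The 3 higher genes did not pass either. MYC, a transcription factor that drives glycolytic genes in growing cells, read 5.74, 9.74 and 17.6 in controls and 42.7, 12.6, 40.9 and 32.3 in low salt, with a change of 1.10 ± 0.38 (SE, adjusted p = 0.321). As deposited the groups overlapped in MYC, between low-salt 2 and control 4. LDHD, the mitochondrial D-lactate dehydrogenase, differed by 1.07 ± 0.42 (SE, adjusted p = 0.379), with its other probe set at 0.06. MLXIPL, the glucose-sensing factor ChREBP, differed by 0.93 ± 0.40 (SE, adjusted p = 0.411), and its 2 other probe sets by -0.71 and -0.20. With the values as deposited the unadjusted limma p was above 0.05 for all 3, at 0.0816 for MYC, 0.225 for LDHD and 0.233 for MLXIPL.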

How the data were processed

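The authors deposited 1 linear intensity per probe set and array, made with GCOS per the submitters' processing notes. Each array had the same trimmed mean, so the authors had scaled the arrays. How probes were summarised is not stated. Control probe sets (111 of 43035) were left out, log2(intensity + 16) was quantile normalized, and the dimmest 33.3% by mean of the 7 arrays were set aside. The other 28616 were fitted with limma 3.58.1 in R 4.3.3 (lmFit, eBayes with a trend), low salt against control, without covariates, and adjusted by Benjamini-Hochberg. The fit was tested on simulated data. Single values were compared by exact two-sided permutation.

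Groups and numbers came from the sample titles. Symbols came from the platform annotation; by gene number, 8 of the 9 members were found under the same name in RefSeq's gene table (UU_Cfam_GSD_1.0) and HK2 was not. No coordinates are given, as the array's genome build is not stated. Members and lists were chosen with earlier results of these data known. All members were named, those of the wider list at an unadjusted p under 0.05, and 5 fixed genes whatever their p. Alternatives were offsets of 1 and 64, values as deposited, equal array medians, other filters, array weights, the methods' t-test, a replicate block and each array left out.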

Additional observations from a re-analysis of the deposited data

Results flagged for a closer look

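The brighter of the 2 HK1 probe sets that were too dim to be tested stood at 6.318 on the normalized log2 scale on low-salt 2, while the other 3 low-salt arrays lay between 4.417 and 4.714. The gap was 0.844 of the range of the group, above Dixon's 95% critical value for 4 samples. Of 17 probe sets checked, 1 had such a gap, and chance gives such a value in about 5% of groups.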

How the results depend on the processing

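Of 192 values of single enzyme probe sets under alternatives, 178 kept their direction and 14 turned, and 0 passed an adjusted p of 0.05 in any. With the values as deposited the brighter ALDOA (0.017) and ENO3 (0.054) probe sets turned, 1 enzyme probe set met a p of at most 0.05 with 2-fold, and in the wider list 1 gene was higher at an unadjusted p under 0.05 and 1 passed the adjusted p. With array medians set equal PFKM (0.35), the brighter ALDOA (0.45) and ENO3 (0.49) turned, 1 enzyme probe set was higher, and the list had 5 higher, 1 lower and 1 past the adjusted p. An offset of 1 gave 1 enzyme probe set past p with 2-fold. Only probe sets above the median, and array weights, left 1 lower list gene each, and array weights passed 1 by adjusted p. The methods' t-test gave 1 higher and 1 lower list gene, and the probe set of smallest p per gene 5 and 4. The cause was not tested. With array medians set equal the median change of all tested probe sets was itself 0.264. The shares of all probe sets or genes at an unadjusted p under 0.05 are not given for these settings, so the unadjusted counts have no background to stand against. The planned ratio of LDHA to LDHB was not run. Over all tested probe sets the count past an adjusted p of 0.05 was 99, with 4 to 177 under other settings and 21 to 290 without 1 array.

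Leaving out 1 array gave 0 to 1 enzyme probe sets lower, 0 to 2 higher and 0 to 1 past p with 2-fold, and 2 to 5 list genes higher, 1 to 3 lower and 0 to 1 past the adjusted p. For the unadjusted counts the share of all probe sets without 1 array is not given either. The dimmer PGK1 change ran from -0.012 to 1.08, the dimmer PKM from -0.25 to 0.21, the brighter ALDOA from -0.10 to 0.052 and the dimmer ALDOA from -0.053 to 0.16. The HK1 to HK2 ratio, whose size the offset sets, ran from -1.36 to -0.94. Sample numbers 1, 3 and 4 occur in both groups, but the labels do not say that they pair samples. Deviations of same-numbered samples correlated at 0.0743, -0.264 and -0.18 over the tested probe sets, and control 4 correlated most with low-salt 3 (0.434). A replicate block over those 6 arrays gave 0 lower enzyme probe sets (HK1 at -0.86, an unadjusted limma p of 0.0539) and turned the dimmer ALDOA to -0.053.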
